A study of Mus musculus with 8 samples.

Results

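In the liver of C57BL/6J mice, 634 CCGG sites carried HpaII tags in all 8 samples and no tag in the MspI reference. They were the sites listed in every one of the 8 deposited files with an m-score of exactly 100 in each, out of 1310003 sites listed in every file. The m-score, the methylation score the authors gave each site, runs between 0, reached without HpaII tags, and 100, reached without MspI tags. The 4 lingonberry livers came from mice on a high-fat diet supplemented with lingonberries, and the 4 HFD livers from mice of the same strain on the high-fat diet alone, so all 8 livers shared the high-fat feeding. The design text gives 4 per group but no identity for each animal, so p-values refer to the spread of these libraries. For single sites that spread was largely pooled over sites with like tag numbers. The labels name frozen liver tissue, which mixes cell types, and give no sex, age, feeding time or batch.

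HELP-tagging compares 2 restriction enzymes that recognise the same 4 bases. HpaII is blocked when the internal CpG is methylated, whereas MspI cuts it in either state. MspI tags therefore stand for the number of times a site can be sampled at all and HpaII tags for its unmethylated copies. A high m-score thus stands for low methylation, and a low m-score for high methylation. EcoP15I, which cuts at a fixed distance from its own recognition site in the adapter, then trims each cut end to a short tag. Dense groups of such sites in mammalian genomes lie mostly in CpG islands, which are usually unmethylated, while scattered sites are usually methylated.

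Both the absence of MspI tags and the presence of HpaII tags chose these sites, so both are described here without a test. The m-score is 100 at each of them in every liver and cannot differ between the diets. The same MspI reference, of 29675432 tags, lies behind all 8 files, scaled to each, so the absence of MspI tags is 1 observation and not 8. A count of 0 allows up to 3 tags, against a median of 18 MspI tags at a listed site. HpaII depth was 6094810 to 16061806 tags in lingonberry livers and 5849116 to 7403697 in HFD livers. At these sites 1 HpaII tag is worth between 1.85 and 4.87 units of the deposited signal in lingonberry files and between 4.01 and 5.07 units in HFD files, so tags were recovered from that signal with the factor of each file. Tags carried no molecular identifiers, and statements on counts cover counting error only.

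The 634 sites were the upper end of a larger set. In all, 11201 sites had no MspI tag in any file that listed them. Of these, 5320 were listed in 1 file, 1916 in 2, 1118 in 3, 763 in 4, 552 in 5, 469 in 6, 429 in 7 and 634 in 8. Most of the set therefore had an HpaII tag in few livers, and the median total over the livers was 1 tag for sites listed in 1 file, 18 for those in 7 and 41 for those in 8. The share with a site listed in any file within 26 bp was 18.8% for sites in 1 file, 47.6% for those in 7 and 56.0% for those in 8. Of the 429 sites just outside the threshold, 17, 62, 89 and 22 were missing from lingonberry livers 1 to 4 and 50, 60, 77 and 52 from HFD livers 1 to 4. The fewest were missing from the deepest library, lingonberry 1, and the most from lingonberry 3 and HFD 3, the shallowest library of each group. Just outside in the other direction, 1259 sites had 1 MspI tag and HpaII tags in all 8 livers, with a mean m-score of 94.2.

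**Figure D1:**
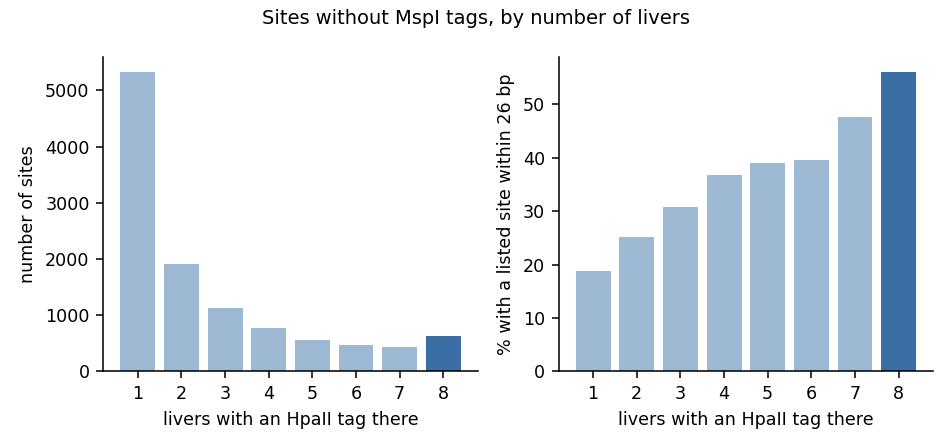
Sites without an MspI tag by the number of livers with an HpaII tag there, as the number of sites (left) and the percentage with another site listed in any file within 26 bp (right). The darker bars are the 634 sites, and the right panel reaches 56.0% at 8 livers.

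Among sites with HpaII tags in all 8 livers, those without MspI tags were 634 of 419435 (0.151%), and they were the end of a gradual scale. A further 1259 sites had 1 MspI tag, 2014 had 2, 2775 had 3 and 3408 had 4, while 221949 had 20 to 49. The median HpaII total hardly moved along the low steps of this scale. It was 41 tags at the 634 sites, 40 at sites with 1 MspI tag, 42 at those with 3, 64 at those with 10 to 19 and 245 at those with 50 or more. The share with another listed site within 26 bp was 54.6% at the 634 sites, 45.1% at sites with 1 MspI tag, 33.9% with 3, 18.3% with 10 to 19 and 3.85% with 50 or more. The share in dense groups, with at least 5 other listed sites within 500 bp, had its lowest value midway. It was 54.3% without MspI tags, 39.0% with 1, 26.1% with 10 to 19 and 45.5% with 50 or more.

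**Figure D2:**
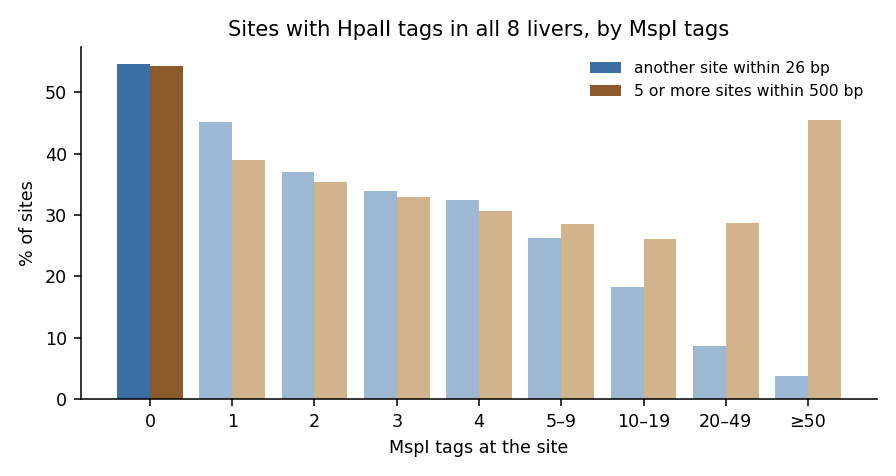
Percentage of sites with HpaII tags in all 8 livers that had another listed site within 26 bp (blue) or at least 5 listed sites within 500 bp (brown), by MspI tags at the site. The 634 sites without MspI tags, in darker bars, stand at 54.6% and 54.3%.

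Every autosome and the X chromosome held some of the sites (all coordinates are mm9). There were 0.484 such sites per 1000 listed sites overall. The autosomes ranged between 0.298 per 1000 on chromosome 13, with 17 sites, and 0.619 on chromosome 15, with 34. Chromosome 5 held the most, 49. The X chromosome held 25 of its 45719 listed sites, or 0.547 per 1000. The Y chromosome held 0 of 767, which allows a share of up to 0.391%. Of the bins of 1 Mb, 411 held 1 of the sites, 76 held 2, 17 held 3 and 5 held 4, and 2075 bins held none.

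At short range most of the sites stood alone among their own kind, with 624 of 634 more than 500 bp from the next. The other 10 formed 5 pairs. On chromosome 15, positions 35301420 and 35301498 had 298 and 240 tags over the 8 livers with 1 listed site between them. On chromosome 17, positions 56970428 and 56970443 lay 15 bp apart with 132 and 31 tags, and they were the sole case in which a site's nearest neighbour within 26 bp was also without MspI tags. Chromosome 3 had a pair at 103772243 and 103772516, with 74 and 60 tags, and another at 127336790 and 127337172, with 69 and 29. The pair on chromosome 7, at 70357250 and 70357369, had 28 and 58 tags. All 10 lay in dense groups with 8 to 13 listed sites within 500 bp.

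The sites lay in denser surroundings than other listed sites. Of the 634, 344 (54.3%) had 5 or more other listed sites within 500 bp, here called clustered, 176 (27.8%) had 1 to 4 and 114 (18.0%) were isolated. Other sites listed in every file were 11.3% clustered, 46.1% with 1 to 4 neighbours and 42.6% isolated. Other sites with HpaII tags in all 8 livers lay between, at 30.9% clustered and 24.7% isolated. The median number of neighbours was 5 at the 634 sites, 2 at other sites with tags in all 8 livers and 1 at other sites overall.

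The nearest listed site was usually close. Its distance had a median of 24 bp at the 634 sites, with quartiles of 11 and 285.5, against 365 bp at other sites and 135 bp at other sites with HpaII tags in all 8 livers. A listed site lay within 26 bp of 346 of the 634 (54.6%), against 7.17% of other sites and 11.8% of other sites with HpaII tags in all 8. At 67 sites (10.6%) the neighbour began 4 or 5 bp away, against 0.50% of other sites, and at 38 of them it was 4 bp away, so that the recognition sequences abutted. The neighbour lay upstream at 180 and downstream at 166 of the 346 sites. None of the 1310003 sites had listed sites within 26 bp on both sides.

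Read the other way, the frequency of sites without MspI tags varied with distance in steps. Per 1000 listed sites there were 10.1 where the nearest site was 4 to 5 bp away, 3.57 at 6 to 10 bp, 3.12 at 11 to 20 bp and 2.95 at 21 to 26 bp. The frequency was 1.23 per 1000 at 27 to 32 bp, 0.434 at 33 to 60 bp and 0.0890 at 101 to 200 bp, its lowest. Beyond that it was 0.302 at 501 to 1000 bp and 0.111 above 2000 bp. Per 1000 sites with HpaII tags in all 8 livers, it was 6.94 at 4 to 26 bp and 0.748 at 33 to 60 bp. On that scale it was 0.228 at 101 to 200 bp, 1.47 at 501 to 1000 bp and 0.917 at 1001 to 2000 bp. MspI tags at listed sites in general also changed between 26 and 27 bp. Their median per site was 6 at 4 to 5 bp, 13 at 26 bp, 39 at 27 bp and 22 at 28 bp. The 634 sites numbered 4.86 per 1000 at 26 bp and 0.88 per 1000 at 27 bp, resting on 18 and 5 sites. Single distances varied, with 1.45 per 1000 at 23 bp and 1.69 per 1000 at 32 bp. The part of tag length in the change between 26 and 27 bp was not tested, as the files give no tag sequences.

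**Figure D3:**
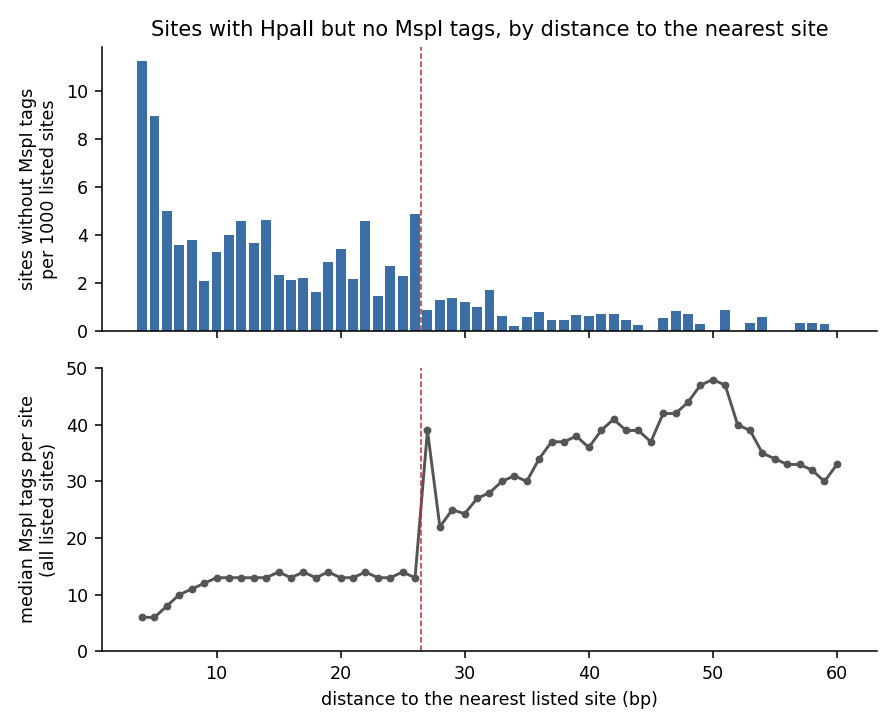
Sites with HpaII but no MspI tags per 1000 listed sites (top) and median MspI tags over all listed sites (bottom), by distance to the nearest listed site in bp, with a dashed line between 26 and 27 bp. The top panel reads 4.86 at 26 bp (18 sites) and 0.88 at 27 bp (5 sites). The median below reads 13 at 26 bp and 39 at 27 bp.

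Distant sites were fewer but not absent. There were 174 sites (27.4%) with the nearest listed site 27 to 500 bp away and 114 (18.0%) with none within 500 bp. The files number the sites, up to 1594137, and 1320570 appear in at least 1 file, so a gap in the numbers marks a site that no file lists. Of the 288 sites with no listed site within 26 bp, 101 (35.1%) were next to such a gap. The share was 15.1% of other sites with no listed site within 26 bp and 8.54% of those that also had HpaII tags in all 8 livers. Of the 346 sites with a listed neighbour within 26 bp, 42 (12.1%) were next to a gap. The distance to an unlisted site is not in the files.

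The nearest neighbours were mostly of intermediate or high m-score. At the 346 sites with a neighbour within 26 bp, that neighbour had a median of 16 MspI tags, 95.5 HpaII tags over the 8 livers and an m-score of 71.3. Its m-score was 75 or above at 148 of them (42.8%), between 25 and 75 at 182 and below 25 at 16 (4.62%). Close neighbours of other sites with HpaII tags in all 8 livers were much the same, with medians of 16 MspI tags, 98 HpaII tags and an m-score of 73.0, of which 45.3% reached 75 and 5.91% were below 25. The sites themselves had a median of 47 HpaII tags, and 117 of them (33.8%) had more than their neighbour. Among those other sites, with a median of 115 HpaII tags, 58.4% had more. The nearest site of the 114 had a median m-score of 15.4, it was below 25 at 72 of them (63.2%), and 79 of the 114 (69.3%) had more HpaII tags than it. For other isolated sites with HpaII tags in all 8 livers that median was 15.04, 64.0% were below 25 and 82.5% had more.

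HpaII tags at the 634 sites ranged in total from 9 to 471 over the 8 livers, with a median of 41 and quartiles of 27 and 69. Per library the median was 9, 5, 4 and 6 tags in lingonberry livers and 5, 4, 3 and 4 in HFD livers. Normalised tags are tags per 1000000 HpaII tags of the library. Their mean per site had a median of 0.605, with a range of 0.133 to 6.71. Presence in all 8 livers rested on a single tag at many sites. The lowest liver had 1 tag at 312 of them, under 1 (a tag shared with other sites) at 3, 2 at 116, 3 to 4 at 92, 5 to 9 at 78 and 10 or more at 33. The 5 sites with the fewest tags had 9 to 10 in all. Clustered sites had a median total of 58.5 tags, sites with 1 to 4 neighbours 32 and isolated sites 28. Fractional values, which mark tags shared between sites, occurred at 12 of the 634 (1.89%) and at 4.70% of other sites.

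The tags were concentrated. The 10 sites with the most tags in total over the 8 livers held 8.94% of the 39020 tags at the 634 sites. The 63 with the most held 34.0%. Ranked instead by mean normalised tags, the 10 highest sites were all clustered, with 6 to 20 listed sites within 500 bp. Of these 10, 9 had a neighbour within 10 to 24 bp. The most tags were at chromosome 4, position 119212286, where lingonberry livers had 112, 103, 42 and 57 tags and HFD livers 50, 37, 44 and 26. Scaled to depth, these were 6.97, 10.3, 6.89 and 5.59 normalised tags in lingonberry livers and 7.13, 5.69, 7.52 and 3.51 in HFD livers. The groups overlapped. Its neighbours lay 14 bp upstream and 58 bp downstream, and the nearer one had 15 MspI and 197 HpaII tags.

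At chromosome 11, position 105043590, the next in order, there were 6.66, 7.53, 5.42 and 6.67 normalised tags in lingonberry livers and 6.85, 6.00, 6.50 and 7.02 in HFD livers. These were close to equal, at 6.57 ± 0.87 in lingonberry livers and 6.59 ± 0.45 in HFD livers (SD, n = 4 each). Next came chromosome 18, position 24625472, with 6.60, 6.03, 6.56 and 5.49 normalised tags in lingonberry livers and 3.42, 4.46, 3.93 and 4.73 in HFD livers. It was the one site of the 10 where all lingonberry livers lay above all HFD livers. The other 7 were chromosome 7, position 25757275, chromosome 8, position 74999133, chromosome 9, positions 78243873 and 24307655, chromosome 15, position 35301420, chromosome 3, position 40886843, and chromosome 5, position 65884012. In each of these 7 the groups overlapped, and 1 liver could stand high, as at chromosome 3, position 40886843, with 2.18 to 4.32 normalised tags in lingonberry livers and 8.13, 4.77, 3.42 and 3.24 in HFD livers.

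Summed over the 634 sites, normalised tags were 554, 566, 572 and 583 in lingonberry livers and 593, 581, 551 and 526 in HFD livers. The means were 569 ± 11.8 in lingonberry livers and 563 ± 30.3 in HFD livers (SD, n = 4 each), a difference of 5.82, and the groups overlapped. The 344 clustered sites summed to 409, 430, 397 and 427 normalised tags in lingonberry livers and 422, 399, 366 and 376 in HFD livers, a difference of 25.3. The 176 sites with 1 to 4 neighbours averaged 104 ± 7.37 in lingonberry livers and 114 ± 10.3 in HFD livers. The 114 isolated sites summed to 44.8, 41.1, 62.5 and 48.6 in lingonberry livers and 59.8, 60.6, 63.1 and 50.1 in HFD livers. Every class overlapped between the groups. At isolated sites lingonberry 1, 2 and 4 lay below all HFD livers and lingonberry 3 lay among them. Over all listed sites, normalised tags were also higher at clustered sites with lingonberries (510464 ± 16544 against 464829 ± 25104 in HFD livers) and lower at isolated sites (127262 ± 9746 against 158482 ± 15830), there without overlap. As normalised tags refer to a fixed total, a higher share in one class goes with a lower one elsewhere.

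**Figure D4:**
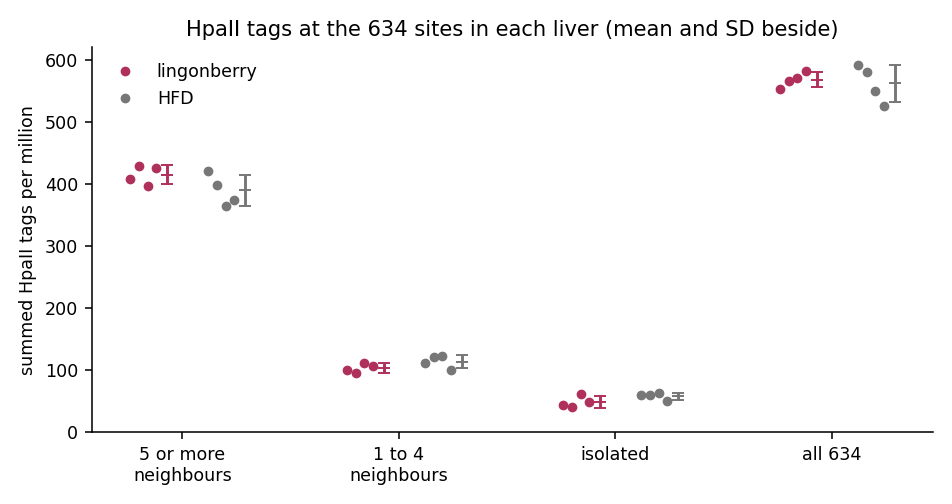
Normalised HpaII tags summed over the 634 sites and over 3 classes by number of listed sites within 500 bp, 1 point per liver with the group mean and SD beside (n = 4 each), lingonberry livers on the left of each pair. The groups overlap in every class, and the clustered class holds most of the sum.

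Site by site, log2(normalised tags + 0.5) was compared between the diets with limma on all 691496 sites with a mean of at least 1 tag, which kept all 634. This pseudocount shrinks the ratio of sites with few tags. The variance of each site was moderated towards a trend with the mean, so SEs and p-values followed tag level more than the site's own spread. For example, chromosome 6, position 94173535, and chromosome 4, position 130306647, both had an SE of 0.325. Their SDs in HFD livers were 0.27 and 0.51 normalised tags. The 634 were chosen to have tags in every liver, while other sites tested could have none in some livers. The lowest whole count, 1 tag, was worth 0.062 to 0.164 normalised tags in lingonberry livers and 0.135 to 0.171 in HFD livers. The part of this unequal floor in the ratios of sites with few tags was not tested. The shares below are not matched for this, so they compare sets chosen differently. No site of the 634 passed an adjusted p of 0.05, where 8 of all sites tested did (0.00116%), and the smallest adjusted p among them was 0.847 (limma, Benjamini-Hochberg over all sites tested). At an unadjusted p below 0.05 there were 24 (3.79%), 11 higher and 13 lower with lingonberries, against 5.77% of all sites tested, 2.17% higher and 3.6% lower. The groups did not overlap at 29 (4.57%), 17 with lingonberry livers higher and 12 lower, against 3.22% of all sites tested, 1.1% higher and 2.12% lower. The log2 ratio, lingonberry over HFD, was above 0 at 300 sites (47.3%), against 45.0% of all sites tested. By direction, the sites without overlap were 2.68% higher and 1.89% lower. Neither gap to the background has a test, and both turned with a setting. With no minimum of tags, 6.15% of the 634 had an unadjusted p below 0.05, against 4.52% of all sites. Without lingonberry 2, the groups did not overlap at 5.84% of the 634, against 6.05% of all sites tested, and with a mean of at least 10 tags at 3.1%, against 3.21%. Clustered sites made up 344 of the 634 and 137880 of the 691496 sites tested. With tags scaled within each density class, 7 of the 634 were higher and 18 lower at an unadjusted p below 0.05, against 2.28% higher and 2.39% lower of all sites tested.

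The median log2 ratio over the 634 sites was -0.03, against -0.04 over all sites tested, with a median standard error of 0.31 per site. At the 129 of them with a mean of at least 10 tags the median was 0.10, with 83 above 0, against 0.04 over all sites with that many tags. By class it was 0.06 at clustered sites, -0.09 at sites with 1 to 4 neighbours and -0.12 at isolated sites. Over all sites tested the medians of the same classes were 0.11, -0.04 and -0.11, in the same order. The spread between livers was large for single sites, with a median coefficient of variation of 45.1% among lingonberry livers and 45.9% among HFD livers.

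**Figure D5:**
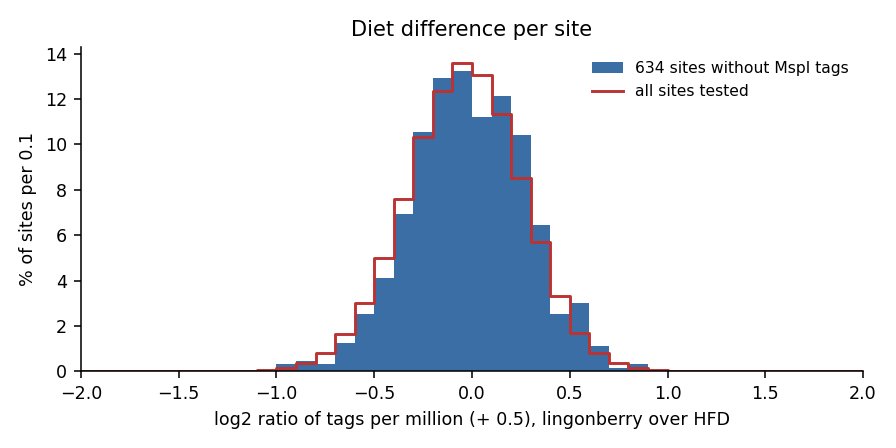
Distribution of the log2 ratio of normalised HpaII tags (+ 0.5), lingonberry over HFD, at the 634 sites (bars) and at all 691496 sites tested (line), as the percentage of sites per 0.1. Both centre near 0, with medians of -0.03 and -0.04.

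The 3 sites with the smallest unadjusted p in each direction had 42 to 118 tags over the 8 livers. Higher with lingonberries, chromosome 4, position 128482896, had 27, 29, 13 and 21 tags in lingonberry livers and 7, 10, 4 and 7 in HFD livers. That was 2.20 ± 0.52 normalised tags in lingonberry livers and 1.04 ± 0.36 in HFD livers (SD, n = 4 each), a log2 ratio of 0.82 ± 0.30 (SE, limma adjusted p = 0.847). It was clustered, 23 bp from a neighbour with 211 HpaII and 19 MspI tags. Next came chromosome 6, position 94173535, an isolated site with 17, 10, 8 and 8 tags in lingonberry livers and 2, 5, 2 and 1 in HFD livers, a log2 ratio of 0.84 ± 0.33 (SE, limma adjusted p = 0.847). At both of these sites every lingonberry liver lay above every HFD liver in normalised tags. Last of the 3, chromosome X, position 49034656, had 23, 13, 6 and 6 tags in lingonberry livers and 5, 3, 2 and 2 in HFD livers, and its normalised tags overlapped between the groups (log2 ratio 0.72 ± 0.32, SE).

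Lower with lingonberries, chromosome 4, position 130306647, had 5, 1, 5 and 3 tags in lingonberry livers and 6, 13, 6 and 8 in HFD livers. Its normalised tags were 0.38 ± 0.31 in lingonberry livers and 1.24 ± 0.51 in HFD livers (SD, n = 4 each), a log2 ratio of -1.0 ± 0.33 (SE, limma adjusted p = 0.847). This isolated site had its nearest listed site 787 bp away, and that site had no HpaII tag in any liver. Chromosome 19, position 46424114, a clustered site 5 bp from its neighbour, had 4, 1, 1 and 8 tags in lingonberry livers and 7, 6, 5 and 10 in HFD livers (log2 ratio -0.95 ± 0.32, SE). Chromosome 19, position 18275027, an isolated site, had 27, 15, 7 and 5 tags in lingonberry livers and 16, 14, 19 and 14 in HFD livers (log2 ratio -0.80 ± 0.30, SE). At all 3 sites every lingonberry liver lay below every HFD liver in normalised tags, and none passed after adjustment over all sites tested. At chromosome 18, position 24625472, described above, the log2 ratio was 0.53 ± 0.25 (SE, limma adjusted p = 0.854).

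Since the score of the 634 sites is fixed, the m-score beside them was taken from listed sites within 500 bp that were not among them. These had at least 10 MspI tags and were 3316 in all, and a higher m-score at them means less methylation. Their mean m-score was 73.8, 74.3, 72.5 and 75.5 in lingonberry livers and 73.4, 71.8, 70.3 and 72.9 in HFD livers. The means were 74.0 ± 1.22 in lingonberry livers and 72.1 ± 1.38 in HFD livers (SD, n = 4 each), a difference of 1.95 that did not pass (exact permutation test, two-sided p = 0.0857, also 0.0857 after Benjamini-Hochberg adjustment over 2 exact tests). The lowest lingonberry value lay below the 2 highest HFD values. The 128163 clustered sites with at least 10 MspI tags outside the 634, which include clustered neighbours, also differed by 1.95. At the same minimum, sites with 1 to 4 neighbours differed by -1.22 (lingonberry minus HFD) and isolated sites by -2.80. All sites outside the 634 together differed by -1.36. Of the neighbours, 55.9% reached a mean m-score of 75 and 1.93% were below 25, against 52.1% and 7.49% of those 128163. With 4 against 4 samples the exact p cannot be below 0.0286.

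The number of sites without MspI tags listed per liver was counted as well, whether or not other livers had them. The files listed 4790, 3396, 2897 and 4399 such sites in lingonberry livers and 3507, 3551, 3300 and 3367 in HFD livers. Such counts grow with depth, so they were brought to the depth of the shallowest library by the expected value of sampling without replacement. At that depth there were 2696, 2371, 2765 and 3052 sites in lingonberry livers and 3066, 3221, 3300 and 2857 in HFD livers. The means were 2721 ± 279 in lingonberry livers and 3111 ± 195 in HFD livers (SD, n = 4 each), a difference of -390 that did not pass (exact permutation test, two-sided p = 0.0571, 0.0857 after adjustment over the 2 tests). Without the reduction the difference was 439 in the opposite direction (exact p = 0.371), so its sign depended on the treatment of depth.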

How the data were processed

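HELP-tagging libraries of 8 liver samples were used, 4 per diet, grouped by the diet label. The authors deposited 1 file per sample, with 2 values per HpaII site: the m-score, a score of 0 to 100, and a signal that the file headers name conf. What each stands for was inferred from the values themselves. The submitters' processing notes name mm9 and CASAVA without versions. How tags were aligned and filtered, and where the MspI reference came from, is not given in the sources used here.

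The signal behaved as the length of the vector of HpaII and scaled MspI tags and the m-score as its angle. Below an m-score of 100, HpaII tags were the sine component of the signal. At 100 they were the signal times the MspI unit of the file (0.1971 to 0.5412), which gave whole tags within 0.02 at 91.2% to 94.8% of those sites. Fractions were read as shared tags. Normalised tags are tags per 1000000 recovered HpaII tags, so values are relative to the other sites of a library.

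Sites listed in all 8 files with a mean of at least 1 tag were fitted with limma 3.58.1 in R 4.3.3 (log2 of normalised tags plus 0.5, mean trend, adjusted p below 0.05), since scores and signals are not counts. Exact permutation tests ran over the 70 assignments, with scipy 1.17.1. The sites named are the 10 with the highest mean normalised tags, the 3 with the smallest p in each direction, the 5 pairs and, as a range, the 5 with the fewest tags. The members, classes and tests were chosen with earlier results of these data known. No sequence or gene is given, as no genome or annotation of mm9 was used here. The alternatives tried were other pseudocounts, tag minimums, scalings, windows and member rules, and each sample left out.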

Additional observations from a re-analysis of the deposited data

Results flagged for a closer look

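In 52 groups of 4 samples, made up of the sums, the neighbours' m-score, the counts per liver and the named sites, no sample stood apart from its group by Dixon's criterion, where chance gives about 2.6 (1 in 20).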

How the results depend on the processing

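No paired analysis was possible because the labels tie no lingonberry sample to an HFD sample, and the replicate numbers used here are in accession order. No site of the 634 passed an adjusted p of 0.05 in limma under any alternative tried. The count at an unadjusted p below 0.05 was 39 (6.15%) with no minimum of tags, against 4.52% of all sites, and 4 of 129 (3.1%) with a mean of at least 10 tags, against 5.83%. The count of sites whose groups do not overlap was 37 to 49 with 1 sample left out (5.84% to 7.73%), against 5.63% to 6.86% of all sites tested, fewer samples making such separation easier. The summed difference was -719 when the signal was taken as tags without the unit of each file and then divided by depth. At an m-score of 100 that signal is already scaled to depth by the unit. Summed as deposited, it was 16878 ± 350 in lingonberry livers and 16705 ± 901 in HFD livers (SD, n = 4 each), a difference of 173. The summed difference in normalised tags was -16.8 with scaling within density classes. With 1 sample left out it was -6.45 to 15.97, below 0 without HFD 4 alone, and the median log2 ratio was -0.05 to 0.0074, above 0 without lingonberry 1 alone. The rule gave 1063 sites with an m-score of 100 in at least 7 of 8 files and 644 at 99 or above in all 8. The share with 5 or more neighbours was 4.57% within 100 bp and 73.5% within 2 kb. The number of sites without MspI tags per liver differed by 439 without reduction to the lowest depth. Of 192 values at the 16 named sites, 183 kept their direction. The other 9 came from leaving out 1 sample, with log2 ratios ranging from -0.075 to 0.072 at chromosome 11, position 105043590, from -0.061 to 0.052 at chromosome 15, position 35301420, from -0.24 to 0.13 at chromosome 5, position 65884012, and from -0.10 to 0.39 at chromosome 7, position 25757275. The unit, depth and left-out samples of the neighbour and overlap results were alternatives chosen after seeing the data. Of the 634 sites, 315 had at most 1 tag in their lowest liver, which limits single sites.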
